A study of Mus musculus with 4 samples.

Results

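Kit, Met and Mitf were read from arrays of cells sorted from the testes of mice that carry a green fluorescent reporter of Sox2. The deposited comparison table of the authors named 5 probe sets for these 3 genes, 2 for Kit, 2 for Met and 1 for Mitf, among its 374 entries and the 45037 probe sets of the arrays that are not controls. The authors had listed those entries, each with a fold of at least 2, from their own comparison of these same 4 arrays. The contrast that chose the members is thus also the one described here. Differences of Kit, Met and Mitf are therefore given as measurements, with no test. They are 3 of the 228 genes that could be named from the table. Any probe set of these genes outside it was not analysed here.

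The arrays compared reporter-positive cells with ckit on their surface (Sox2GFP+ckit+, ckit+ cells below) with reporter-positive cells without it (Sox2GFP+ckit-, ckit- cells below), on 2 arrays each, labelled as biological replicates. Both populations came from Sox2GFP mice of 2 weeks of age on a mixed 129SvJae/BL6 background, so all animals carried the reporter, and cells without reporter signal were not part of the comparison. Each sample pooled 20 testes and yielded between 20000 and 90000 sorted cells, from which 5 ng of total RNA was amplified. The labels describe ckit- cells as able to regenerate damaged tubules and ckit+ cells as unable to do so, and the contrast addressed how their transcripts differ.

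As background, KIT is a receptor tyrosine kinase whose ligand, stem cell factor, is made by Sertoli cells in the testis. Spermatogonia gain KIT when they leave the undifferentiated state and depend on it as they divide. MET is the receptor tyrosine kinase for hepatocyte growth factor. MITF is a basic helix-loop-helix leucine zipper transcription factor known from melanocytes and mast cells, where it binds E-boxes and activates Kit, where KIT signalling in turn modifies MITF protein, and where, in melanocytes, Met is also among its targets.

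The promoters of the 3 genes are shown because MITF is a DNA-binding factor. The authors' selection placed its transcript with those of both receptors, and whether MITF acts on any of these genes in these cells was not tested. On the GRCm38.p6 build of the mouse genome Kit spans chr5:75574987-75656722, Met chr6:17463349-17573980 and Mitf chr6:97807002-98021360. Each window, taken from RefSeq on that build, runs from 250 bases before to 50 bases after an annotated start, 5′ to 3′ on the plus strand, and capitals mark E-boxes of the general form CANNTG, a palindromic form that reads alike on both strands. The first line is Kit at chr5:75574737-75575036, the second is Met at chr6:17463707-17464006 and the third is the Mitf window that held an E-box, at chr6:97929567-97929866.
Kit: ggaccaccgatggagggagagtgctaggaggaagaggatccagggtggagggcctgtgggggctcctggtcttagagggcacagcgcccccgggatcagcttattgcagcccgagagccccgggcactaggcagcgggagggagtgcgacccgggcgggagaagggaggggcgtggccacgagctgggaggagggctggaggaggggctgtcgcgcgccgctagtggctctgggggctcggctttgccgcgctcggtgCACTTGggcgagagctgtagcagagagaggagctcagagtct
Met: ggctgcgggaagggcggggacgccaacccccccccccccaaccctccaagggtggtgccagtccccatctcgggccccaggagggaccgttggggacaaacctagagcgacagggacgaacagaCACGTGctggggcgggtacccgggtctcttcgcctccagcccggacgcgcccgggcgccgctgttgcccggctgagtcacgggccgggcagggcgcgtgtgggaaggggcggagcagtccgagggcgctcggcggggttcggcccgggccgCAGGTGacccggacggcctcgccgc
Mitf: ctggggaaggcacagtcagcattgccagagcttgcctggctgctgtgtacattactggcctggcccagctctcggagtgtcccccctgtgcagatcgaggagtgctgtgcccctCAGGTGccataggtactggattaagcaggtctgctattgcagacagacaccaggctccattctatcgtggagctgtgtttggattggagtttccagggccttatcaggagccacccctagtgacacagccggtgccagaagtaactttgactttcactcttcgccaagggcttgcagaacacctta

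Of the 2 forms known for MITF binding, CACGTG and CATGTG (the second also as its reverse complement CACATG), the Met window held 1 CACGTG. It lay at position -126 from the annotated start used for that window (chr6:17463831-17463836). The whole Met window lies downstream of the first base of the Met span, chr6:17463349. This box is therefore upstream of the start used here but inside the span of the gene. CACGTG occurs in 7.15% of the 32851 promoter windows of this length in the RefSeq table, and CATGTG in 14.2%. The windows of Kit and Mitf held neither. The Kit window held a CACTTG at position 9 after the start (chr5:75574995-75575000), and the Met window a second E-box, CAGGTG, at position 26. Both forms of E-box searched for MITF are also CANNTG boxes, which 72.3% of all windows hold, and a search for CANNTG was added after the data had been seen. Mitf has 2 further annotated starts, with windows at chr6:97806808-97807107 and chr6:97991533-97991832, neither of which held a CANNTG, and Kit has another start a few bases downstream with the same E-box. The share of G and C was 75.7% in the Met window, 69.0% in the Kit window and 55.7% in the Mitf window shown. The Mitf windows not shown had 62.7% (chr6:97806808-97807107) and 40.0% (chr6:97991533-97991832). The median over all windows was 52.7%. Which Mitf start gives the transcript read on the arrays was not examined here. These matches describe the letters of the windows and not sites bound in these cells.

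Kit was the gene whose protein product had defined the sort, and its transcript followed the sort. The brighter Kit probe set read 9.68 and 9.62 in ckit+ cells, against 6.87 and 6.78 in ckit- cells (log2 expression values). Both arrays of each population lay close together and the populations did not overlap. The means were 9.65 ± 0.04 in ckit+ cells and 6.83 ± 0.06 in ckit- cells (SD, n = 2 each), a log2 difference of 2.83 ± 0.16 (limma's standard error) or 7.09-fold. Of all 45037 probe sets, this one had the highest difference in the direction of ckit+ cells (rank 1). The sort chose cells by KIT protein and not by transcript, and the probe set came from the authors' comparison of these same arrays. Its direction is therefore a description and not an independent check of the labels.

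The dimmer Kit probe set read 7.91 and 8.27 in ckit+ cells, against 6.22 and 5.44 in ckit- cells. Its ckit- arrays lay 0.78 apart, a wider gap than between the same arrays for 96.2% of all probe sets, while the median gap was 0.21. The populations still did not overlap, and the log2 difference was 2.26 ± 0.29, or 4.81-fold. Any ckit+ array exceeded any ckit- array by 1.69 to 2.84 on the dimmer probe set and by 2.75 to 2.90 on the brighter one, so the ranges of the differences on the Kit probe sets overlapped.

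Met, which the sort did not use, was higher in ckit+ cells on both of its probe sets. The brighter one read 9.98 and 9.56 in ckit+ cells, against 7.54 and 7.65 in ckit- cells. The ckit+ arrays differed by 0.42 and the ckit- arrays by 0.11, with no overlap between the populations. The log2 difference was 2.18 ± 0.20, or 4.52-fold, with averages of 9.77 ± 0.30 for ckit+ and of 7.59 ± 0.08 for ckit- arrays (SD, n = 2 each). It ranked 6 among all probe sets in this direction, next to the dimmer Kit probe set at rank 5.

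The dimmer Met probe set read 7.41 and 6.70 in ckit+ cells, against 5.67 and 5.63 in ckit- cells. Here the ckit+ arrays lay 0.71 apart, wider than for 95.6% of all probe sets, and the first of them was the higher on both Met probe sets. The log2 difference was 1.40 ± 0.25, or 2.65-fold. Pairs of a ckit+ and a ckit- array differed by 1.03 to 1.78 on the dimmer probe set and by 1.91 to 2.44 on the brighter one, so the size of the Met difference depended on the probe set by more than the spread of the arrays, while its direction was the same in every pair. What sets these probe sets apart is not given in the sources used here, and no cause was tested.

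Mitf carried 1 named probe set, which the authors' deposited table describes as transcript variant 2. It read 7.90 and 7.75 in ckit+ cells, against 6.39 and 6.13 in ckit- cells. The arrays of a population were at most 0.26 apart and the populations did not overlap. The log2 difference was 1.56 ± 0.18, or 2.95-fold, between means of 7.82 ± 0.11 in ckit+ and of 6.26 ± 0.18 in the ckit- population (SD, n = 2 each), and it ranked 41 in the direction of ckit+ cells. MITF is made from several promoters and transcripts, and with 1 named probe set no other form was read here. In a sorted population, fewer cells that hold a transcript and less of it per cell cannot be told apart.

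**Figure D1:**
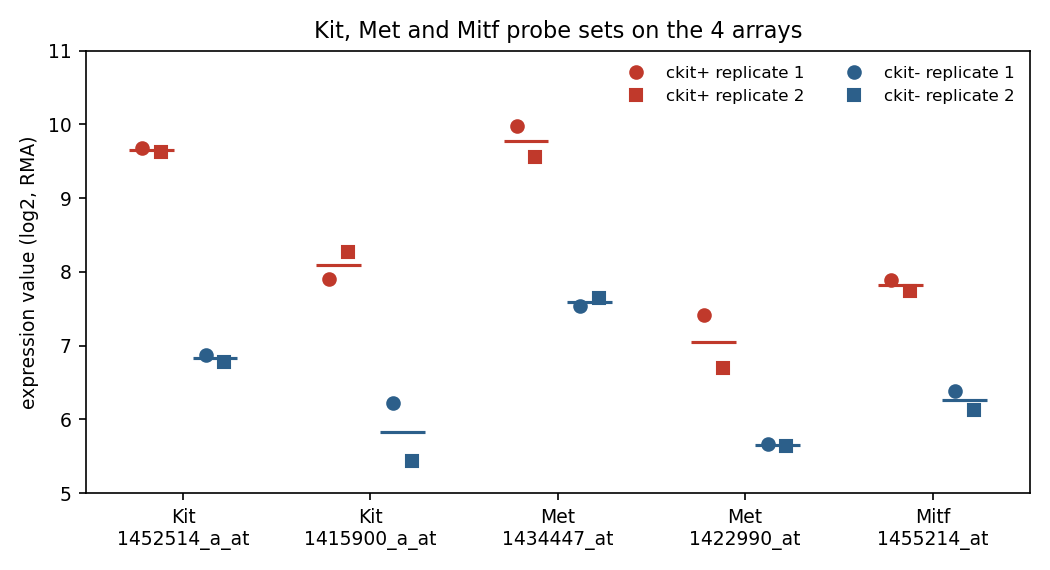
Log2 expression values (vertical axis) of the 5 probe sets of Kit, Met and Mitf (horizontal axis) on each array, with ckit+ arrays in red to the left of ckit- arrays in blue, circles for replicate 1, squares for replicate 2 and a bar for the mean of each population. On each of the 5 both ckit+ arrays lie above both ckit- arrays, and the widest gaps between replicates are those of the dimmer Met probe set in ckit+ cells (0.71) and of the dimmer Kit probe set in ckit- cells (0.78).

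By the brighter probe set of each gene, the difference was largest for Kit, then Met, then Mitf. The ranges over pairs of arrays, 2.75 to 2.90 for Kit, 1.91 to 2.44 for Met and 1.35 to 1.76 for Mitf, did not overlap. With the dimmer Met probe set (1.03 to 1.78) the range of Met overlapped that of Mitf, so the order of Met and Mitf depended on the probe set. With the dimmer Kit probe set (1.69 to 2.84) the range of Kit overlapped those of both Met and Mitf, so the separation of Kit from them did too. Values of different probe sets are not comparable as levels, so these orders are of differences only.

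Both ckit+ arrays lay above both ckit- arrays on 5 of 5 probe sets, against 24.5% of all probe sets, and all 5 had group means at least 2-fold higher in ckit+ cells, against 0.675%. Limma, fitted over all probe sets, called 139 at a Benjamini-Hochberg adjusted p under 0.05, which is 0.309%, and 0.115% were called as higher in ckit+ cells. Those calls held 3 of the 5 probe sets, the brighter one of Kit, the brighter one of Met and that of Mitf. Since the authors' selection on these arrays chose the members, these counts are descriptions and not evidence of a difference. With any 1 array left out limma called 0 probe sets, so the calls rested on all 4 arrays, although 4513 to 6422 had an unadjusted p under 0.05. Over all probe sets the median difference was -0.0046 and the middle 95% lay between -0.67 and 0.72.

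**Figure D2:**
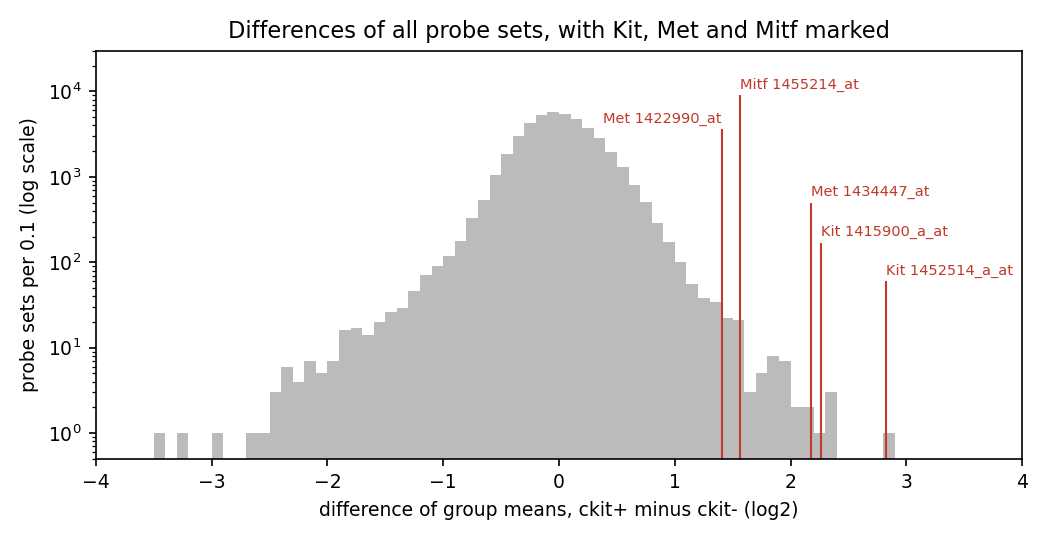
Number of probe sets (vertical axis, log scale) by log2 difference of group means, ckit+ minus ckit- (horizontal axis, bins of 0.1), over all 45037 probe sets, with red lines at Kit, Met and Mitf. The lines stand at 1.40 and 2.18 for Met, 1.56 for Mitf and 2.26 and 2.83 for Kit, and their heights only separate the labels.

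The authors' deposited table gave levels close to the RMA means for the brighter Kit probe set and lower ones for the other 4 probe sets. For the brighter Kit probe set the value of the authors' deposited table minus the RMA mean was -0.02 in ckit+ and 0.08 in ckit- cells. For Mitf it lists 7.58 in ckit+ and 6.04 in ckit- cells, and for the brighter Met probe set 9.26 in ckit+ and 7.20 in ckit- cells, which is lower than the RMA means in both populations. The same gap was -0.24 in ckit+ and -0.23 in ckit- cells for Mitf, and -0.51 in ckit+ and -0.39 in ckit- cells for Met. It was -0.21 in ckit+ and -0.33 in ckit- cells for the dimmer Kit probe set, and -0.42 in ckit+ and -0.45 in ckit- cells for the dimmer Met probe set. The fold values of the authors' deposited table were 6.63 and 5.24 for the brighter and dimmer Kit probe sets, 4.16 and 2.71 for those of Met in the same order and 2.92 for Mitf, which ranked 1, 3, 7, 40 and 31 among the 178 entries of the authors' deposited table that were higher in ckit+ cells. The member closest to the limit of the authors' deposited table, the dimmer Met probe set at 2.71, stood above the lowest listed fold of 2.00.

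Among other genes of these pathways, only those in the deposited table carry a name, so they too were selected for a difference on these arrays. Of 33 genes listed for stem cell factor and KIT signalling, 2 were named, Kit and Grb10, both higher in ckit+ cells. Grb10 encodes an adaptor that binds activated receptor tyrosine kinases, KIT among them, and is best known for restraining insulin receptor signalling. Its brightest probe set read 10.97 and 10.88 in ckit+ cells, against 9.70 and 9.12 in ckit- cells, a log2 difference of 1.52 ± 0.23. The other Grb10 probe sets had narrower gaps between replicates and log2 differences of 1.87 ± 0.16 and 1.48 ± 0.16, in the same direction. Limma's calls included those with narrower gaps and not the brightest one. Of 23 genes listed for hepatocyte growth factor and MET signalling and of 14 for MITF, its family and partners, only Met and Mitf themselves were named. The same held for Kit and Met among 21 genes known as MITF targets.

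Of 42 receptor tyrosine kinases listed, 4 were named, with Kit, Met and Ephb4 higher in ckit+ cells and Ret higher in ckit- cells. Limma called 2 of these in the direction of ckit+ cells (0.115% of all probe sets) and 1 in that of ckit- cells (0.193%). Ephb4, a receptor for ephrin-B2, read 7.35 and 7.57 in ckit+ cells, against 6.23 and 6.12 in ckit- cells, a log2 difference of 1.28 ± 0.17 that was not among the calls. Ret, the signalling receptor for the niche factor GDNF, read 6.71 and 6.82 in ckit+ cells, against 9.09 and 8.92 in ckit- cells. The transcripts of the receptors for stem cell factor and GDNF thus differed in opposite directions, by 2.83 for Kit and by -2.24 ± 0.17 for Ret.

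Among 20 genes listed as regulators of Kit or for differentiating spermatogonia, 6 were named, 4 higher in ckit+ and 2 in ckit- cells. Their median log2 difference was 1.10, beside -0.0046 over all probe sets. The authors had selected all 6 for a difference in either direction, and Kit is among them, so nothing is read from that gap. Zbtb16 encodes PLZF, a zinc finger protein known to repress Kit in undifferentiated spermatogonia. Its brighter probe set read 10.63 and 10.50 in ckit+ cells, against 12.35 and 12.25 in ckit- cells, so it differed by -1.73 ± 0.16. The second Zbtb16 probe set differed by -1.57 ± 0.19. Tfap2c, a transcription factor of early germ cells, read 9.09 and 9.35 in ckit+ cells, against 10.75 and 10.74 in ckit- cells. Stra8, which retinoic acid induces as germ cells move towards meiosis, differed by 1.70 ± 0.16 towards ckit+ cells, the DNA methyltransferase gene Dnmt3b by 1.10 ± 0.16 and the homeobox gene Rhox13 by 1.10 ± 0.18. The calls held 4 of these 6 genes, Kit and Stra8 as higher in ckit+ cells and Zbtb16 and Tfap2c as higher in ckit- cells, beside 0.115% and 0.193% of all probe sets called in these directions. Since 134 of the 374 entries of the authors' deposited table were among the calls and all 6 genes come from it, nothing is read from that count.

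**Figure D3:**
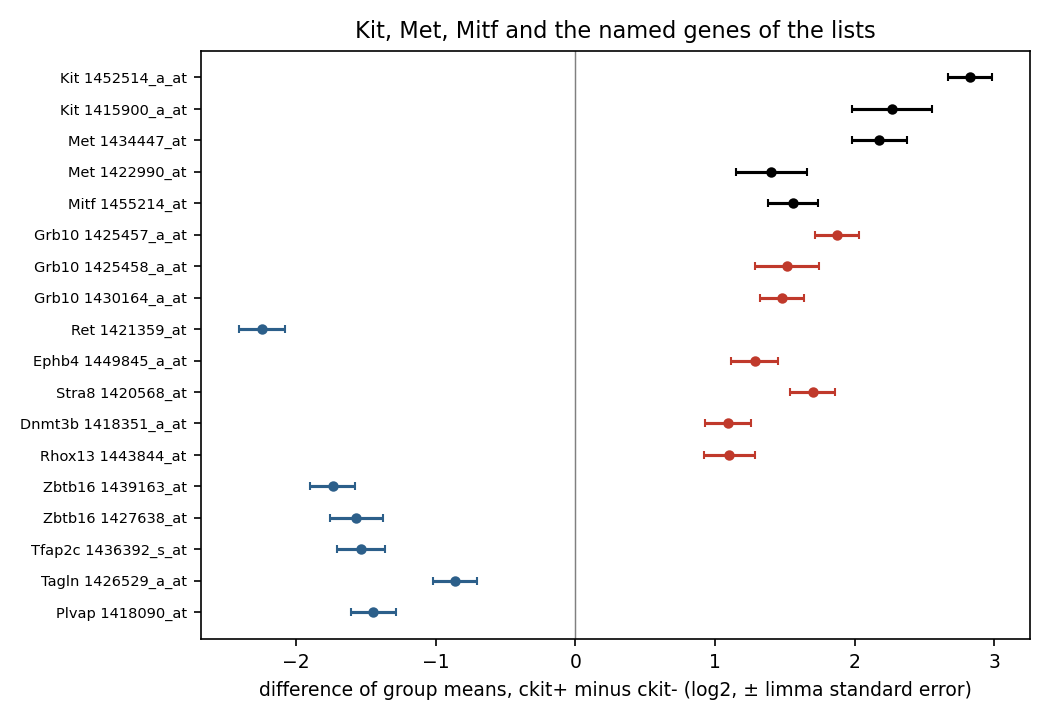
Log2 difference of group means, ckit+ minus ckit- (horizontal axis), with limma's standard error as bars, for the probe sets of Kit, Met and Mitf (black) and of the named genes of the lists, red where higher in ckit+ and blue where higher in ckit- cells. Grb10, Ephb4, Stra8, Dnmt3b and Rhox13 stand on the side of Kit, Met and Mitf, and Ret, Zbtb16, Tfap2c, Tagln and Plvap on the other.

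Markers of other cells that express Kit or Mitf could not be read by name. None of the 8 genes listed for mast cells, 6 for melanocytes, 6 for Leydig cells, 7 for Sertoli cells, 5 for macrophages and leukocytes or 5 for germ cells carries a name in the table, so the identity of the sorted cells was not checked here and the part of other cell types in these differences was not tested. Of the 6 endothelial genes Plvap was named, at 5.40 and 5.39 in ckit+ cells, against 6.77 and 6.91 in ckit- cells. Of the 4 genes of peritubular myoid cells Tagln was named, with 5.99 ± 0.02 for ckit+ and 6.85 ± 0.06 for ckit- arrays (SD, n = 2 each). Both markers were thus lower in the population in which Kit, Met and Mitf were higher. Both carry a name only because the authors had selected them for a difference on these arrays. The other genes of these lists were not read. Limma called Plvap, in a direction in which it called 0.193% of all probe sets, and not Tagln.

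The genes most like each member were taken as the 5 other named genes with the smallest Euclidean distance between log2 values centred on their mean over the 4 arrays. For Kit these were Ebf3 (distance 0.51), Runx3 (0.64), Met (0.71), Med1 (0.84) and Morc4 (0.85). Ebf3, a transcription factor of the EBF family, read 8.37 and 8.16 in ckit+ cells, against 6.10 and 5.64 in ckit- cells, and Runx3, a Runt domain transcription factor, averaged 9.32 ± 0.02 for ckit+ and 6.95 ± 0.51 for ckit- arrays (SD, n = 2 each). All 5 had smaller differences than Kit, from 1.99 for Morc4 to 2.39 for Ebf3, which the rank of 1 of the brighter Kit probe set had fixed.

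For Met the closest genes were Morc4 (0.24), Kcnip3 (0.34), Cnpy1 (0.35), Nmral1 (0.44) and Mbnl3 (0.46). Morc4, a nuclear protein of the MORC family, read 8.53 and 8.32 in ckit+ cells, against 6.40 and 6.47 in ckit- cells, so that, as for Met, the ckit+ arrays were further apart than the ckit- arrays. Cnpy1 read 4.71 and 4.57 in ckit+ cells and 2.62 and 2.86 in ckit- cells, below the lower quartile of every array (4.93 to 5.04), among the dimmest readings of the arrays.

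Mitf had the closest company, with Tbc1d24 at 0.05, Rbp4 at 0.06, Clip1 at 0.13 and Slc27a2 and Fen1 at 0.18. Rbp4, a carrier of retinol, read 9.52 and 9.36 in ckit+ cells, against 8.01 and 7.83 in ckit- cells, a log2 difference of 1.52 beside 1.56 for Mitf. Fen1, a flap endonuclease of DNA replication, differed by 1.40. Between the members the distance was 0.71 from Kit to Met, 0.70 from Met to Mitf and 1.27 from Kit to Mitf. A distance over 4 arrays mostly measures how alike the differences are in size, and all these genes come from the authors' selection.

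**Figure D4:**
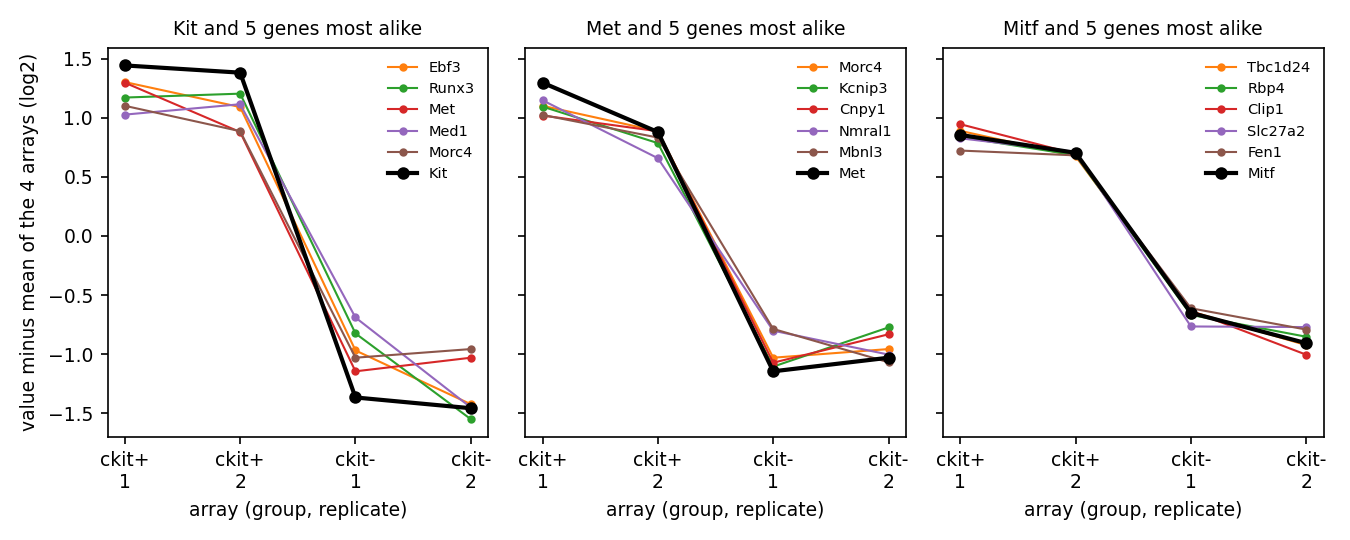
Log2 value minus the mean of the 4 arrays (vertical axis) on each array (horizontal axis, ckit+ arrays left, ckit- arrays right) for Kit, Met and Mitf (black, brighter probe set) and the 5 named genes closest to each (colours), with lines joining the arrays of a gene. The Mitf panel is the tightest, with distances of 0.05 to 0.18, and the Kit panel the widest, with 0.51 to 0.85.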

How the data were processed

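RNA of 4 samples, 2 ckit+ and 2 ckit- pools, was measured on 1-colour arrays of 45101 probe sets, 64 of them controls. The deposited log2 values were made by the authors with RMA, per the submitters' processing notes. The RMA version and the array model are not given in the sources used here. Array medians lay between 6.39 and 6.42, and the number of arrays limits the precision.

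The authors' deposited comparison table gave, per the file headers, the mean of each population in log2 units, a ratio (fold) of at least 2, and p-values of a per-probe comparison adjusted by Benjamini-Hochberg over 605 tests. How its values were normalized is not given in the sources used here. Names came from that table: 262 of 374 probe sets, 228 genes (61 probe sets by accession and 102 by symbol, both through the RefSeq table of GRCm38.p6, and 99 by full name).

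Limma 3.58.1 (R 4.3.3, lmFit and eBayes, two-sided, adjusted p under 0.05) was fitted to all 45037 other probe sets, ckit+ minus ckit-, without covariates, after a check on simulated data. An exact permutation test of 2 against 2 cannot go below p = 0.333. The ± beside a level is the SD of 2 arrays, that beside a difference limma's standard error. Genes with several probe sets stand by the one with the highest mean. RMA's quantile step makes array distributions alike, so a shift of all transcripts would not be visible. The deposited distributions were close but not identical. Lower and upper quartiles were 4.95 and 8.12, and 4.93 and 8.15, on the ckit+ arrays. On the ckit- arrays they were 5.01 and 8.05, and 5.04 and 7.99, so the ckit+ arrays were slightly wider. The members, the 14 gene lists and the rule for named genes (every member probe set, up to 6 named genes of a list, 5 closest genes per member) were chosen with earlier results of these data known. Alternatives were a second quantile normalization, median centring, an intensity trend, a filter on dim probe sets, a plain t-test, averaging all probe sets that carry 1 gene's name, the authors' deposited values, the replicate number as a block and leaving out each array.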

Additional observations from a re-analysis of the deposited data

How the results depend on the processing

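Kit, Met and Mitf kept their direction under every alternative run. Both ckit+ arrays exceeded both ckit- arrays on all 5 probe sets, so leaving out an array or averaging probe sets could not reverse it. The authors' deposited table had itself chosen the members. The Kit difference, 2.83, was 2.76 with renewed quantile normalization, 2.55 as the mean of its probe sets and 2.73 in the authors' deposited table. The Met difference, 2.18, was 2.07 with renewed quantile normalization, 1.79 as the mean of its probe sets and 2.06 in the authors' deposited table. The Mitf difference, 1.56, was 1.53 with renewed quantile normalization and 1.55 in the authors' deposited table. With 1 array left out the differences were 2.78 to 2.87 for Kit, 1.97 to 2.39 for Met and 1.43 to 1.69 for Mitf. Leaving out an array gave 0 calls by limma in each case (0 of the 5 probe sets of Kit, Met and Mitf), and the lone array is then assumed to vary like the other group. With a replicate block limma called 554 probe sets in place of 139, which took in all 139 and all 5 of these probe sets, and the differences stayed 2.83 for Kit, 2.18 for Met and 1.56 for Mitf. An intensity trend gave 419 calls (4 of the 5) and the plain t-test 1 (0 of the 5). Deviations from the group means of the 2 arrays numbered 1 correlated at 0.26 over all probe sets. With 2 arrays per group, those numbered 2 give the same value by construction. No label ties a number to a shared day or litter. Grb10 as the mean of its probe sets made 1 call in the KIT signalling list, against 0 by its brightest probe set, and without dim probe sets the calls among receptor tyrosine kinases other than Kit and Met were 2, against 1. The cause of these gaps was not tested.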

Other observations

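Further genes of the deposited table that act in receptor tyrosine kinase signalling were picked after their values had been seen, and none was among limma's calls. Socs6, a suppressor of cytokine signalling known to bind KIT, averaged 6.89 ± 0.16 for ckit+ and 5.89 ± 0.06 for ckit- arrays (SD, n = 2 each; log2 values, as below). Efnb2, the ligand of Ephb4, read 5.43 and 5.63 in ckit+ cells and 4.49 and 4.34 in ckit- cells, the ckit- pair below the lower quartile of its arrays.

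Of 3 phosphatases of the MAP kinase cascade picked in this way, Dusp9 had log2 differences of 1.36 and 0.75 on its probe sets, with 8.43 and 8.63 in ckit+ cells, against 7.56 and 6.78 in ckit- cells, on the brighter one. Dusp6 read 7.54 and 7.93 in ckit+ cells, against 8.94 and 8.99 in ckit- cells, and Dusp10 5.96 and 5.72 in ckit+ cells, against 6.92 and 6.61 in ckit- cells. Rps6ka6, a ribosomal S6 kinase, read 8.64 and 8.41 in ckit+ cells, against 7.43 and 7.07 in ckit- cells. For each of these genes both arrays of one population lay above both of the other. Over all probe sets, 24.5% had both ckit+ arrays above both ckit- arrays, and the share for the other direction was not computed. The authors had listed these genes, with folds of at least 2, from a comparison of the same arrays, so nothing is read from the lack of overlap.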
